A study of Mus musculus with 5 samples.

Results

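The genes described here are 34 genes of protein folding in the endoplasmic reticulum (ER) and of the unfolded protein response, measured in MIN6 cells. The MIN6 line came from a mouse insulinoma, secretes insulin and is widely used in place of primary beta cells. The genes were taken by symbol from the array annotation, and all 34 had at least 1 probe, of 25844 genes tested on the arrays. Of several probes of 1 gene, the brightest on average stands for it. In 3 samples, called EXO-HP, the cells had been given vesicles (exosomes) that muscles dissected from high-fat-fed mice had released into medium, collected by ultracentrifugation. In 2 samples, called EXO-STD, the muscles were those of mice fed a standard diet. Both groups therefore received muscle vesicles, and no cells without vesicles were analysed here. Vesicle dose, length of treatment, mouse strain and age, and the number of mice pooled are not stated in the sources used here. The labels call the samples biological replicates without saying what was separate, so each p-value covers only the spread among these 5 samples, which may be technical.

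Beta cells send large amounts of proinsulin through the ER, where chaperones such as BiP hold the growing chain, disulfide enzymes form and correct its bonds, and lectin chaperones retain unfinished glycoproteins. Proteins that fail to fold are passed back through the membrane and degraded. Load on this system is read by the sensors IRE1, PERK and ATF6, whose outputs, among them the factor XBP1, raise the genes of chaperones and of degradation. This unfolded protein response is known in beta cells both as part of normal secretion and as a route to cell loss in diabetes.

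The promoter element best known from genes of this response is the ER stress response element (ERSE), a binding site of NF-Y with ATF6 or XBP1. Promoter windows from RefSeq (GRCm38.p6), 250 bases before to 50 bases after each gene's start, were matched for 28 of the 34 genes, Ero1lb through its current symbol Ero1b. CCAAT, a spacer of any 9 bases and CCACG were searched together on both strands and were found in 10 of these 28 genes (35.7%), against 0 of 100 other ER pathway genes and 37 of 27025 genes in the promoter table (0.137%). The 5-letter parts of that element were searched alone as well, and every ERSE also counts as a match of both. CCAAT was found in 24 of the 28 genes (85.7%) and in 41.1% of all genes, and CCACG in 23 (82.1%) and in 35.5% of all genes. TGACGTGG, the letters of the unfolded protein response element, was found in 0 of the 28 genes, in 4 of the 100 other ER pathway genes and in 0.714% of all genes. A match is a description of the letters in this window and not a shown binding site.

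The 11 matches are printed because they show the element in the genes that have it, with the fixed letters in capitals, on the strand on which they match. Hsp90b1 has a pair of them, in opposite orientations.
Hspa5 (chr2:34772025-34772043, + strand, near end 47 bases before the start): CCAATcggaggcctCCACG
Hsp90b1 (chr10:86705638-86705656, - strand, near end 194 bases before the start): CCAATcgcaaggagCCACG
Hsp90b1 (chr10:86705533-86705551, + strand, near end 89 bases before the start): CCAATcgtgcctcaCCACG
Dnajc3 (chr14:118937827-118937845, + strand, near end 87 bases before the start): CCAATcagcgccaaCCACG
Creld2 (chr15:88819520-88819538, - strand, near end 108 bases before the start): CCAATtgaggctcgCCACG
Calr (chr8:84847075-84847093, + strand, near end 144 bases before the start): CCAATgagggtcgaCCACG
Canx (chr11:50325800-50325818, - strand, near end 127 bases before the start): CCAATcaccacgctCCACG
Pdia6 (chr12:17266491-17266509, + strand, near end 80 bases before the start): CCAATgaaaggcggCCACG
Ero1lb (chr13:12565682-12565700, - strand, near end 183 bases before the start): CCAATgaggcgggaCCACG
Syvn1 (chr19:6046532-6046550, + strand, near end 26 bases before the start): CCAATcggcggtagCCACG
Derl3 (chr10:75893242-75893260, - strand, near end 138 bases before the start): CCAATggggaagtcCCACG
The whole window of Hspa5, the gene of BiP, shows where the element lies in front of the start (chr2:34771840-34772139, + strand).
Hspa5 promoter: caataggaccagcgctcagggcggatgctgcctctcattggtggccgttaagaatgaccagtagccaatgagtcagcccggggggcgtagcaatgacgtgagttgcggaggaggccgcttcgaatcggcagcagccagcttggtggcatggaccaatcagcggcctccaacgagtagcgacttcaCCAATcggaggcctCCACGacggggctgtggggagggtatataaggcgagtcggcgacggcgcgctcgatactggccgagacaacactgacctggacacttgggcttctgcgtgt

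All 34 genes were well above background on all 5 arrays, as were the 12 beta cell markers examined, Ins1, Ins2 and Pdx1 among them, of which 10 were higher in EXO-HP at a median log2 fold change of 0.20 and none at an unadjusted p under 0.05. Of markers of other cells, 6 of 8 of other islet cells, 5 of 7 of acinar cells, 3 of 6 of duct cells, 3 of 8 of fibroblasts, 7 of 8 of leukocytes and 5 of 10 of skeletal muscle were well above background on all 5 arrays, while Pnlip, Sox9, Pdgfra and Lyz2 were so on none. Among tested markers, 8 of 8 of skeletal muscle (median log2 fold change 0.52), 7 of 7 of leukocytes (0.17), 4 of 5 of fibroblasts (0.75), 5 of 6 of acinar cells (0.31), 4 of 6 of other islet cells (0.12) and 3 of 4 of duct cells (0.01) were higher in EXO-HP. Of these, 2 of skeletal muscle, 2 of fibroblasts and 1 of leukocytes had an unadjusted p under 0.05, and none passed an adjusted p of 0.05 in limma. Over all tested genes, 62.4% were higher, and 5.63% were higher at an unadjusted p under 0.05. Among the markers under that p, 1 of skeletal muscle was well above background on only 3 arrays and 1 of fibroblasts on only 2. Some dim markers could be tested only because they were well above background in 1 group, and the part of these markers in the ER gene values was not tested. Slide 2 held EXO-HP replicates 2 and 3, and slide 1 held EXO-HP replicate 1 beside both EXO-STD arrays. On slide 2, 91.6% and 81.6% of spots were well above background, and on slide 1 between 71.8% and 74.0%. Values are log2 signals minus the 75th percentile of the array, so a value of 0 is that percentile, and a level is compared only between arrays and not between genes.

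None of the ER genes passed the test between cells given EXO-HP and cells given EXO-STD vesicles. Of the 34 genes, 13 were higher and 21 lower in EXO-HP (median log2 fold change -0.04), against 62.4% higher and a median of 0.07 over all 25844 tested genes. That split was 5 higher with median scaling, under which all genes had a median of -0.10, 17 higher with quantile normalisation, and 20 higher with normexp background correction and quantile normalisation together, where the median of the 34 genes was 0.03. Median scaling moves every gene by the same amount, so the median of the 34 genes minus that of all genes was -0.11 with it, as with the 75th percentile. That difference was 0.004 with quantile normalisation, 0.048 with normexp and quantile normalisation together and 0.028 in the deposited value table. None of the 34 passed an adjusted p of 0.05 in limma (smallest adjusted p = 0.879), as did none of 31943 probes (0%), and 1797 probes (5.63%) had an unadjusted p under 0.05. Among the 34 genes, 1 had an unadjusted p under 0.05 and was lower, against a background of 0.24% of genes lower and 5.63% higher at that p. The groups did not overlap for 1 higher gene (Wfs1) and 2 lower genes (Fkbp11 and Pdia3), against 15.1% of all genes higher and 2.81% lower. Over the 21740 genes well above background on all 5 arrays, as the 34 were, the shares were 57.7% above 0, 2.73% higher and 0.23% lower at that p, and 11.9% higher and 3.18% lower without overlap. Without covariates, the 95% interval of the log2 fold change excluded a 2-fold change in either direction for 29 of the 34 genes. Hspa5 was not among them (-1.01 to 0.53), and its standard error rose from 0.31 to 0.43 with slide as a fixed block. Xbp1 and Sec61b were among them. With slide as a fixed block they had -0.34 ± 0.44 and -0.33 ± 0.45 (SE), at which a 2-fold change is not excluded. The count of 29 thus belongs only to the fit without slide. In whole cultures, a smaller share of cells expressing a gene and less of its RNA per cell cannot be told apart.

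**Figure D1:**
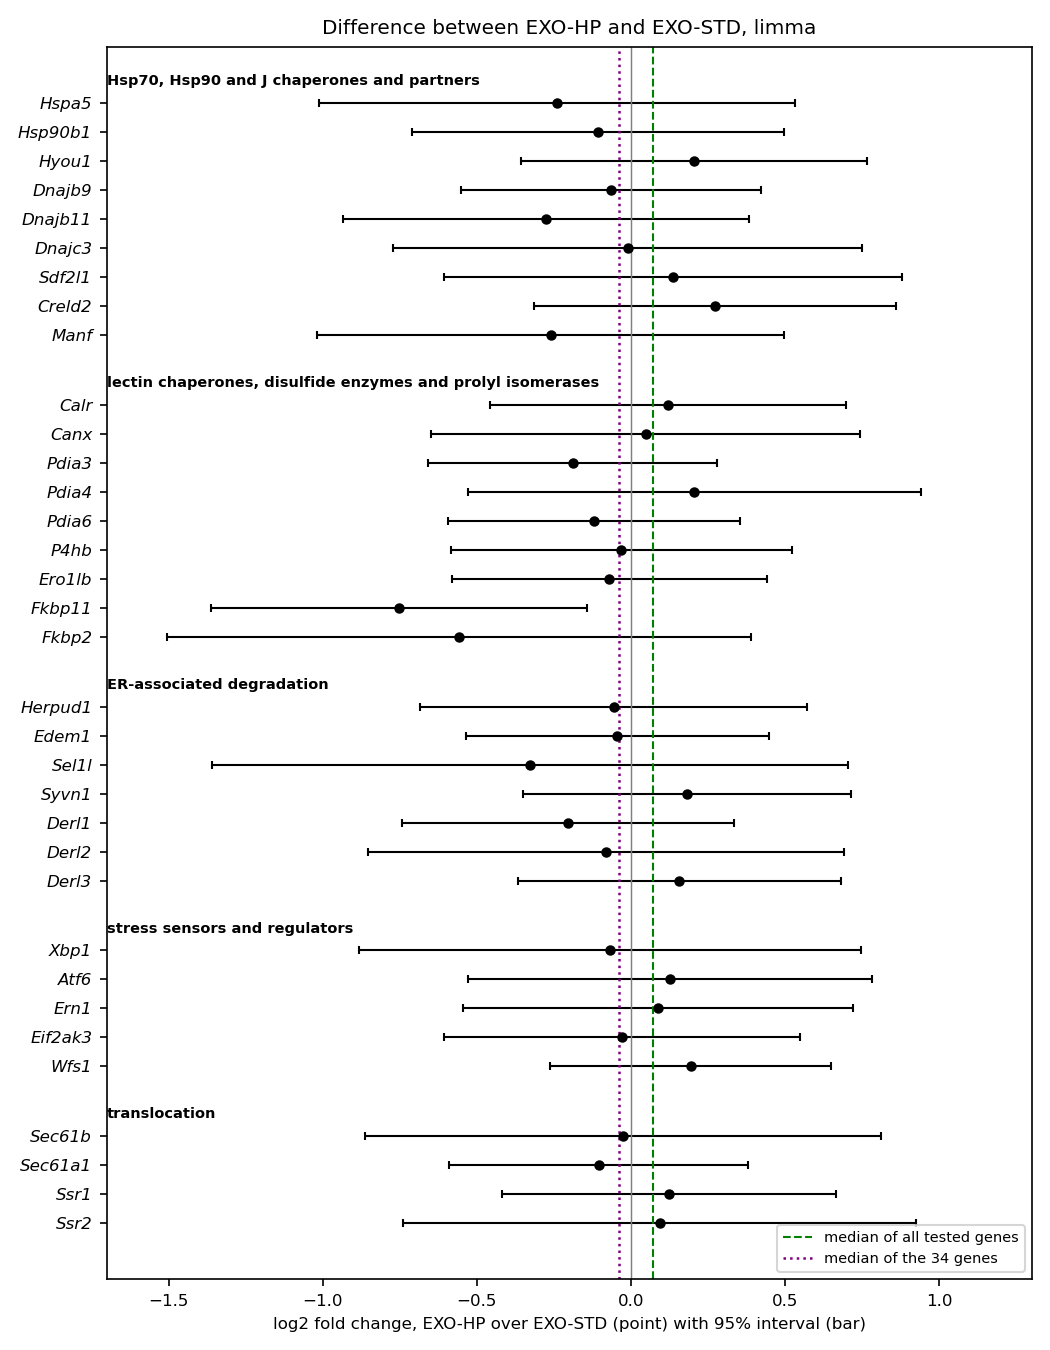
Log2 fold change of each of the 34 genes, EXO-HP over EXO-STD (points, limma), with its 95% interval (bars), arranged by role. The interval of Fkbp11 alone lies to 1 side of 0, the median of the 34 genes (-0.04, dotted) lies left of 0, and the median of all tested genes (0.07, dashed) right of it.

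The lowest log2 fold changes of the 34 genes were those of Fkbp11 and Fkbp2, prolyl isomerases, which turn proline bonds in folding chains. Prolyl isomerases among the other ER pathway genes lay closer to 0 and on either side of it. Fkbp9 had -0.24, Ppib -0.09, Fkbp7 -0.07, Fkbp14 0.02 and Fkbp10 0.15. Fkbp11, a membrane-bound isomerase of secretory cells, read -1.77, -1.49 and -1.91 on EXO-HP replicates 1, 2 and 3, against -0.75 and -1.19 on EXO-STD replicates 1 and 2. Every EXO-HP array lay below both EXO-STD arrays. The means were -1.72 ± 0.21 (SD, n = 3) in EXO-HP and -0.97 ± 0.31 (SD, n = 2) in EXO-STD, a log2 fold change of -0.75 ± 0.24 (SE, 95% interval -1.36 to -0.14). In limma this had an unadjusted p of 0.0238 and an adjusted p of 0.879, and so did not pass. Without EXO-STD replicate 1 the difference was -0.54, and it ranged from -0.97 to -0.54 over all 16 alternatives. The unadjusted p of Fkbp11 in limma was 0.080 with slide as a fixed block and 0.18 with replicate number as a block.

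Fkbp2, a soluble isomerase of the ER lumen, read 4.12, 5.33 and 4.88 on EXO-HP replicates 1, 2 and 3, against 5.40 and 5.27 on EXO-STD replicates 1 and 2. EXO-HP replicate 1 alone was more than 1 log2 unit below the EXO-STD arrays, and EXO-HP replicate 2 lay between them. The log2 fold change was -0.56 ± 0.38 (SE), -1.21 on the arrays of slide 1 and -0.23 without EXO-HP replicate 1 (limma adjusted p = 1.00). Fkbp11 was measured by a probe at chr15:98554809-98554868, and the probe of Fkbp2 has the span chr19:7053122-7053483, both on the - strand of mm9 as the array design gives them. The design assigns each probe to the transcript of its gene, and exon annotation was not used here.

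Of the disulfide isomerases, Pdia3 (ERp57), which works with the lectin chaperones on glycoproteins, read 3.81, 3.63 and 3.78 in EXO-HP and 3.92 and 3.94 in EXO-STD. The groups did not overlap, but the log2 fold change of -0.19 ± 0.19 (SE) was about as large as its standard error (adjusted p = 1.00). Calr, the soluble lectin chaperone and calcium store calreticulin, read 4.60, 4.49 and 4.82 in EXO-HP and 4.31 and 4.73 in EXO-STD. Its groups overlapped, and its log2 fold change of 0.12 ± 0.23 turned to -0.09 without EXO-STD replicate 1 and to -0.06 with median scaling. Canx, the membrane-bound partner of calreticulin, the isomerases Pdia4, Pdia6 and P4hb, and Ero1lb, the oxidase that recharges them and is abundant in the pancreas, all had intervals that held 0. Over the 9 genes of lectin chaperones, disulfide enzymes and isomerases, 3 were higher and 6 lower (median log2 fold change -0.07), with a range from -0.75 to 0.21.

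**Figure D2:**
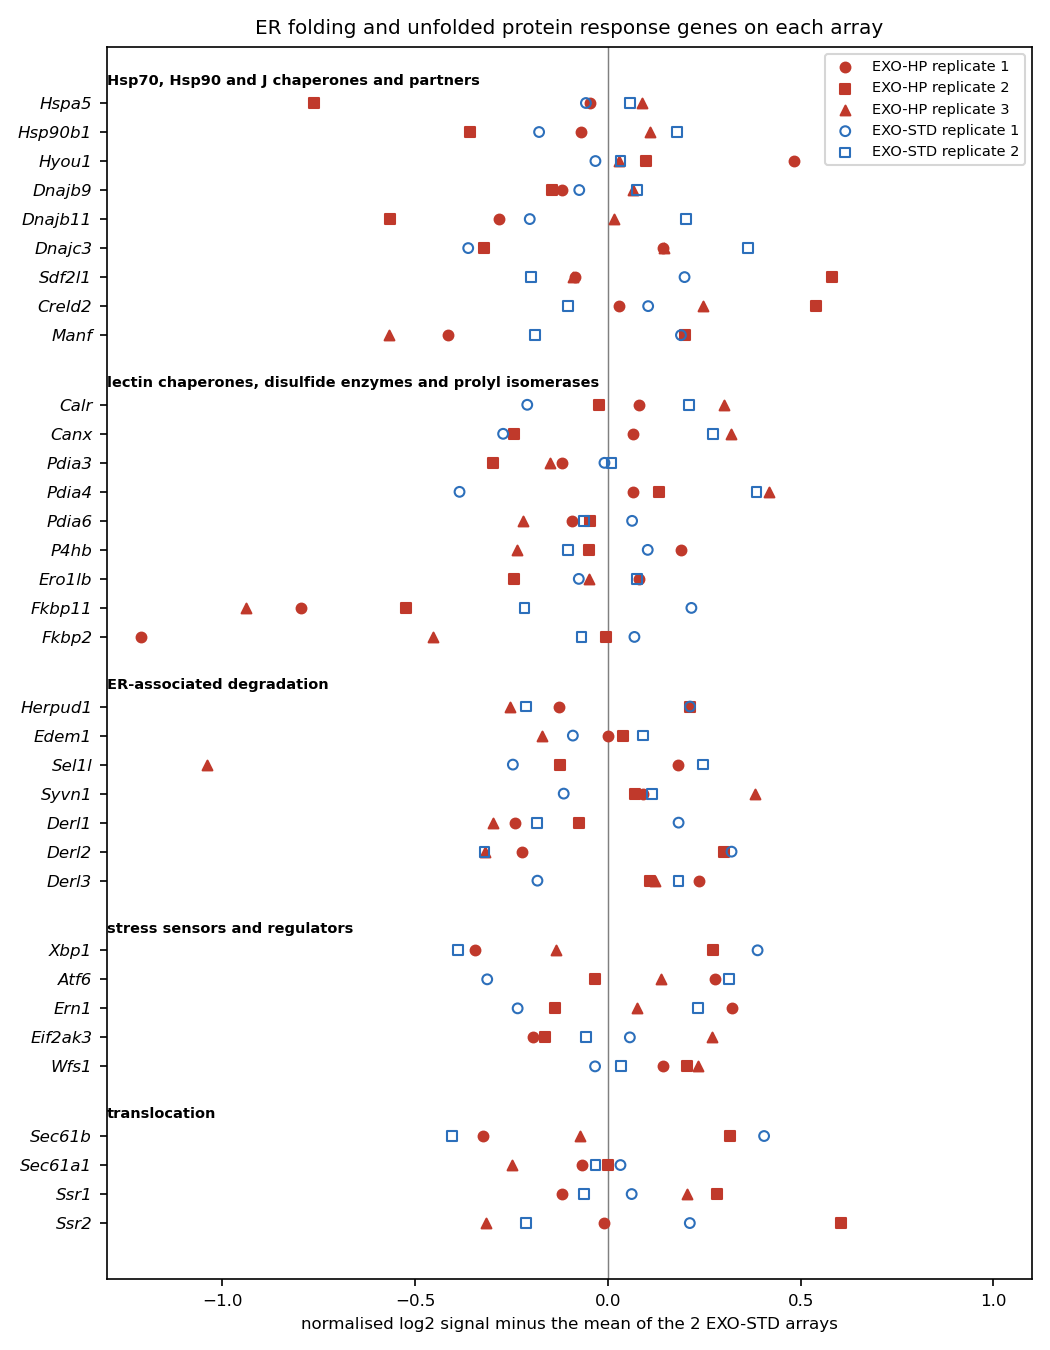
Normalised log2 signal of each gene on each array, minus the mean of the 2 EXO-STD arrays, by role. Filled red symbols are EXO-HP and open blue symbols EXO-STD, with circles, squares and triangles for replicates 1, 2 and 3. Red and blue symbols separate for Fkbp11, Pdia3 and Wfs1, whereas for the other 31 genes they overlap.

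Hspa5, the gene of the Hsp70 chaperone BiP and the usual readout of ER stress, read 6.31, 5.60 and 6.45 on EXO-HP replicates 1, 2 and 3, against 6.30 and 6.42 on EXO-STD replicates 1 and 2. Only EXO-HP replicate 2 lay apart, at the low side, and the other 2 EXO-HP arrays were within 0.2 of the EXO-STD arrays. The means were 6.12 ± 0.46 (SD, n = 3) in EXO-HP and 6.36 ± 0.08 (SD, n = 2) in EXO-STD, a log2 fold change of -0.24 ± 0.31 (SE, 95% interval -1.01 to 0.53, limma adjusted p = 1.00). It was 0.02 without EXO-HP replicate 2. Its probe lay at chr2:34631913-34631972, on the + strand of mm9.

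Hsp90b1, the ER form of Hsp90 known as GRP94, read 6.41, 6.12 and 6.59 in EXO-HP and 6.30 and 6.66 in EXO-STD. Here too EXO-HP replicate 2 was lowest, and the log2 fold change of -0.11 ± 0.24 (SE) was 0.07 without EXO-STD replicate 2, 0.02 without EXO-HP replicate 2 and 0.02 with normexp and quantile normalisation together. Hyou1, the GRP170 exchange factor of BiP, read 0.07, -0.31 and -0.38 in EXO-HP and -0.45 and -0.38 in EXO-STD. EXO-HP replicate 1 was its highest array, and the log2 fold change of 0.20 ± 0.23 fell to 0.06 without that array. Creld2, a folding protein known to be induced by ER stress, read 5.31, 5.83 and 5.53 in EXO-HP and 5.39 and 5.18 in EXO-STD. Its groups overlapped, with a log2 fold change of 0.27 ± 0.24 that was 0.03 on the arrays of slide 1.

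Dnajb11, the J-domain partner ERdj3 that brings chains to BiP, read 3.80, 3.52 and 4.10 in EXO-HP and 3.88 and 4.28 in EXO-STD. The log2 fold change was -0.28 ± 0.26 (SE), and its second probe gave 0.36 ± 0.92. That second probe was well above background on only 2 of 5 arrays, and the mean of both probes gave 0.04. The J proteins Dnajb9 and Dnajc3, the BiP cofactor Manf and Sdf2l1, a partner of Dnajb11, had intervals that held 0. Over these 9 chaperones and partners, 3 were higher and 6 lower, with a median of -0.07 and a range from -0.28 to 0.27.

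Among the genes of ER-associated degradation, Herpud1, a scaffold of the degradation complex that is strongly induced by ER stress, read 3.13, 3.47 and 3.00 in EXO-HP and 3.47 and 3.04 in EXO-STD. The highest array of each group gave the same rounded value, and the log2 fold change was -0.06 ± 0.25 (SE, 95% interval -0.68 to 0.57). It was 0.16 without EXO-STD replicate 1 and 0.04 without EXO-HP replicate 3. Derl1, a membrane channel component, read 1.39, 1.56 and 1.33 in EXO-HP and 1.81 and 1.45 in EXO-STD. Its log2 fold change of -0.20 ± 0.22 was -0.02 without EXO-STD replicate 1, and its second probe gave -0.09. Sel1l and Syvn1, which form the ubiquitin ligase complex, Edem1, which marks misfolded glycoproteins, and the derlins Derl2 and Derl3 had intervals that held 0. Of the 7 genes, 2 were higher and 5 lower, with a median of -0.06 and a range from -0.33 to 0.18.

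Of the 5 sensors and regulators, 3 were higher and 2 lower (median 0.09), and none passed the test. Ern1, which encodes IRE1, read 1.47, 1.01 and 1.23 in EXO-HP and 0.92 and 1.38 in EXO-STD, a log2 fold change of 0.09 ± 0.25 (SE, 95% interval -0.55 to 0.72). Eif2ak3, which encodes PERK, read 1.04, 1.07 and 1.50 in EXO-HP and 1.29 and 1.18 in EXO-STD, a log2 fold change of -0.03 ± 0.23 (95% interval -0.61 to 0.55). Atf6 read -0.15, -0.46 and -0.29 in EXO-HP and -0.74 and -0.11 in EXO-STD, a log2 fold change of 0.13 ± 0.26 (95% interval -0.53 to 0.78). The groups overlapped for all 3. With median scaling Ern1 had -0.09 and Atf6 -0.05. Without EXO-STD replicate 1 Ern1 had -0.15, Atf6 -0.19 and Eif2ak3 0.03, without EXO-HP replicate 1 Ern1 had -0.03 and Eif2ak3 0.05, and without EXO-HP replicate 2 Eif2ak3 had 0.04.

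Xbp1, the factor whose mRNA IRE1 splices, read 4.60, 5.22 and 4.81 in EXO-HP and 5.34 and 4.56 in EXO-STD. EXO-STD held both its highest and its lowest array, 0.78 log2 units apart, and the difference between the groups was -0.07 ± 0.33 (SE, 95% interval -0.88 to 0.75). It was 0.32 without EXO-STD replicate 1, 0.07 without EXO-HP replicate 1, 0.00 with quantile normalisation, 0.04 with normexp added to it and 0.04 in the deposited value table. It was -0.34 on the arrays of slide 1 and -0.46 without EXO-STD replicate 2. The spliced form was not analysed here. Wfs1, the ER membrane protein that is lost in Wolfram syndrome, a disease with diabetes, read 2.88, 2.94 and 2.97 in EXO-HP and 2.70 and 2.77 in EXO-STD. Every EXO-HP array lay above both EXO-STD arrays and each group had an SD of 0.05, yet the log2 fold change of 0.19 ± 0.18 (SE, 95% interval -0.26 to 0.65) did not pass in limma, which moderates the variance over all probes (adjusted p = 1.00). It was 0.02 with median scaling.

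Translocation genes bring new chains into the ER, and of these 4, 2 were higher and 2 lower (median 0.03). Sec61b, a subunit of the Sec61 channel, read 5.76, 6.40 and 6.01 in EXO-HP and 6.49 and 5.68 in EXO-STD. As for Xbp1, EXO-STD held the highest and the lowest array, and the log2 fold change was -0.03 ± 0.34 (SE), with -0.20 from its second probe. It was 0.38 without EXO-STD replicate 1, 0.12 without EXO-HP replicate 1, 0.02 with quantile normalisation, and 0.18 both with normexp added to it and in the deposited value table. It was -0.33 on the arrays of slide 1 and -0.43 without EXO-STD replicate 2. Sec61a1, the pore subunit, and Ssr1 and Ssr2 of the translocon-associated protein complex had intervals that held 0, and the 3 probes of Ssr1 ranged from -0.30 to 0.12.

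The 34 genes differed more between arrays of 1 group than between the groups. The median absolute log2 difference over the 34 genes was 0.12 between EXO-HP and EXO-STD, against 0.32 between EXO-HP replicates 2 and 3, which share slide 2, and 0.37 between EXO-STD replicates 1 and 2, which share slide 1. A difference of group means averages over arrays and is smaller than one of single arrays for that reason alone. Over genes well above background on all 5 arrays the same 3 values were 0.14, 0.32 and 0.33.

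These within-slide differences ran alike in the 2 groups, which share no array. The pair, and which replicate was subtracted from which, were chosen after the values were seen, so the sign of their agreement is set by that choice and the values are a description. Sec61b stood 0.39 higher on EXO-HP replicate 2 than on replicate 3, and 0.81 higher on EXO-STD replicate 1 than on replicate 2. Ssr2, with 0.92 in EXO-HP and 0.42 in EXO-STD, Derl2, with 0.62 in EXO-HP and 0.64 in EXO-STD, Xbp1, with 0.41 in EXO-HP and 0.78 in EXO-STD, and Herpud1, with 0.47 in EXO-HP and 0.43 in EXO-STD, ran the same way, and so did Manf, with 0.77 in EXO-HP and 0.38 in EXO-STD, and Sdf2l1, with 0.67 in EXO-HP and 0.40 in EXO-STD. Several chaperones and sensors ran the opposite way. Dnajc3 had -0.47 in EXO-HP and -0.73 in EXO-STD. Canx had -0.56 in EXO-HP and -0.54 in EXO-STD and Dnajb11 -0.58 in EXO-HP and -0.41 in EXO-STD. Hsp90b1 had -0.47 in EXO-HP and -0.36 in EXO-STD and Calr -0.33 in EXO-HP and -0.42 in EXO-STD. Pdia4 had -0.28 in EXO-HP and -0.77 in EXO-STD, Ern1 -0.21 in EXO-HP and -0.47 in EXO-STD, and Atf6 -0.17 in EXO-HP and -0.63 in EXO-STD. Hspa5 had -0.85 in EXO-HP and -0.11 in EXO-STD. In all, 15 genes were positive in both differences and 15 negative in both, and Sel1l, Edem1, Hyou1 and Eif2ak3 had opposite signs. Across the 34 genes Pearson's r was 0.64 and Spearman's rho 0.71, against 0.39 and 0.52 over 21740 genes well above background on all 5 arrays. Over the 125 other ER pathway genes described below both were higher, at 0.79 and 0.81, so the agreement is not particular to the 34 genes. The points of each set share their arrays, and genes are not independent replicates.

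**Figure D3:**
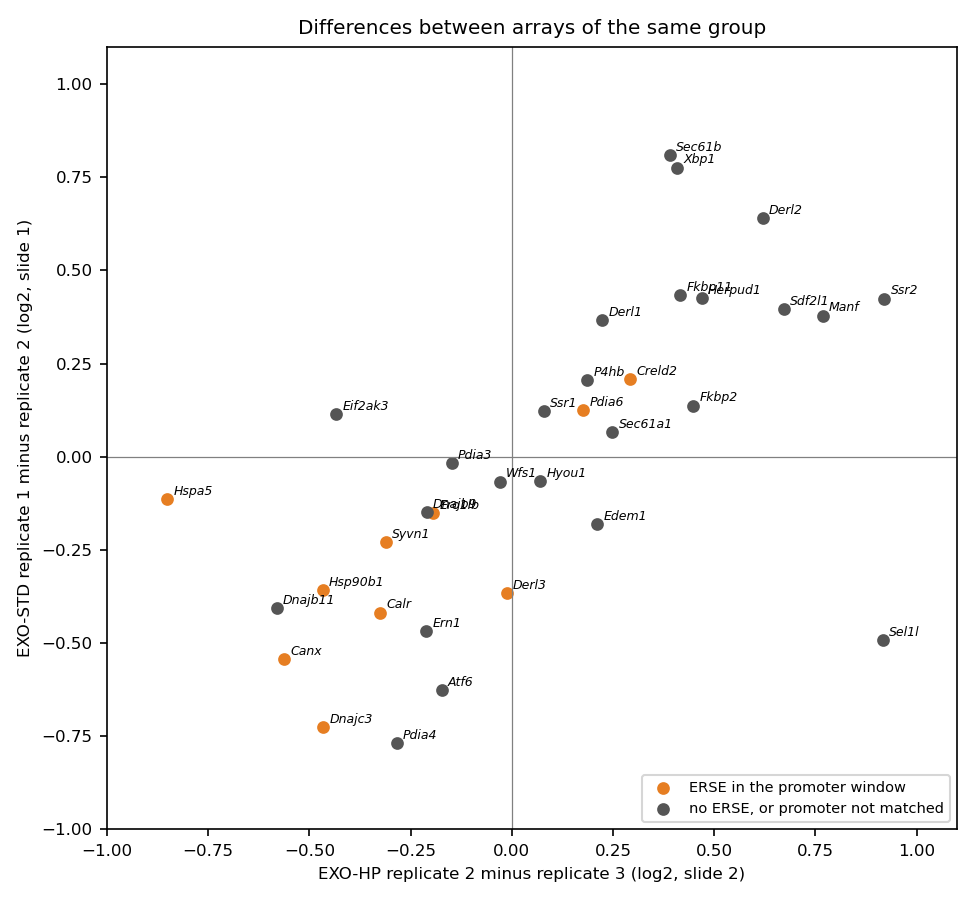
Difference between 2 arrays of the same group for each of the 34 genes, EXO-HP replicate 2 minus replicate 3 (x axis, log2) against EXO-STD replicate 1 minus replicate 2 (y axis, log2). Orange points are the 10 genes with an ERSE in the promoter window, of which 8 lie at the lower left, where both differences are negative. Over the 21740 genes well above background on all 5 arrays, 7061 were negative in both and 8468 positive in both.

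Of the 10 genes with the ERSE printed above, 8 were negative in both differences and 2, Creld2 and Pdia6, positive in both. Over the 21740 genes well above background on all 5 arrays, 7061 were negative in both and 8468 positive in both. Of the 24 other genes, which include 6 with no matched promoter, 7 were negative in both and 13 positive in both. Between the groups, 5 of the 10 genes with the element were higher and 5 lower in EXO-HP (median log2 fold change 0.02), with a range from -0.24 to 0.27. The 24 others had 8 higher and 16 lower, with a median of -0.05. The difference between genes with and without the element was not tested.

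Genes of cytosolic ribosomal proteins differed between the same arrays. As differences from the EXO-STD mean, the medians of 79 such genes were -0.28, 0.36 and -0.27 on EXO-HP replicates 1, 2 and 3, against 0.31 and -0.31 on EXO-STD replicates 1 and 2. They thus stood high on the same arrays as Sec61b, Xbp1 and Herpud1, and their part in the differences of the ER genes was not tested. The median of all 34 ER genes stayed close to 0, at -0.06, -0.01 and -0.02 on EXO-HP replicates 1, 2 and 3 and -0.02 and 0.02 on EXO-STD replicates 1 and 2. Among the roles, the 4 translocation genes had medians of -0.09, 0.30 and -0.16 in EXO-HP and 0.14 and -0.14 in EXO-STD. The 9 chaperones and partners had -0.07, -0.15 and 0.07 in EXO-HP and -0.06 and 0.06 in EXO-STD.

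**Figure D4:**
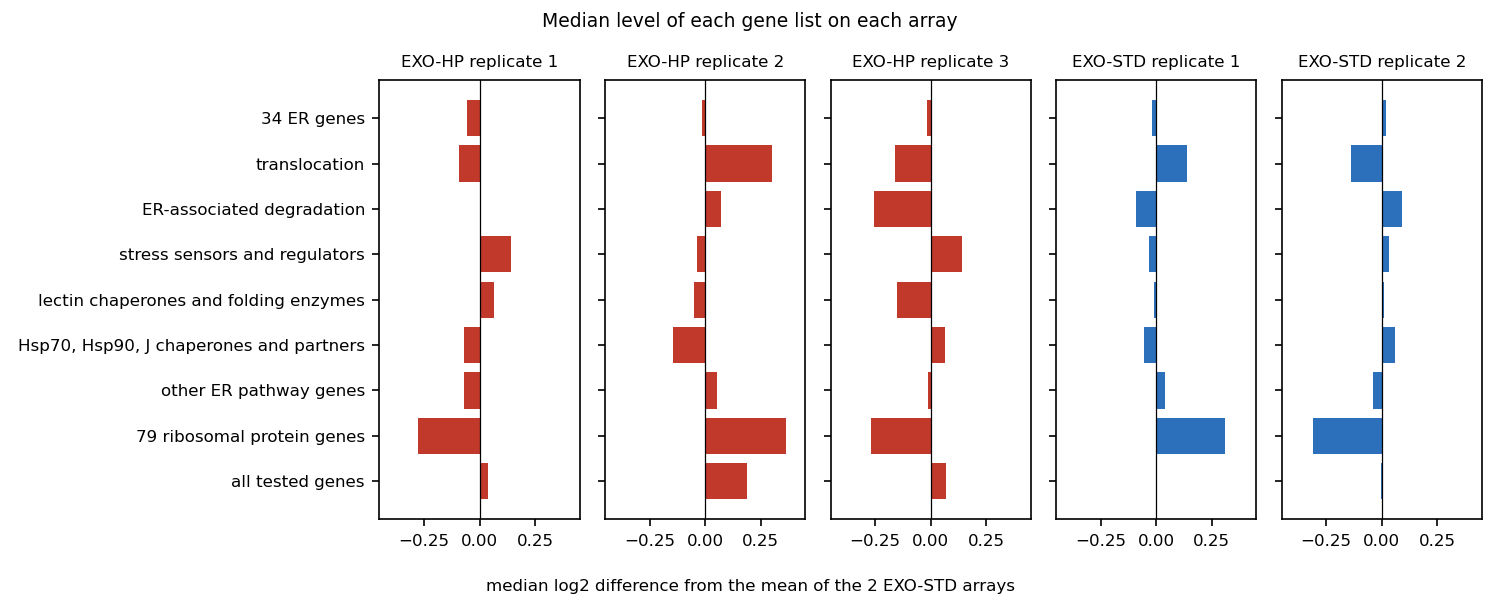
Median log2 difference from the mean of the 2 EXO-STD arrays, for each gene list (rows) on each array (panels, EXO-HP red and EXO-STD blue). The 2 EXO-STD panels mirror each other because their mean is the zero line. Ribosomal protein genes reach 0.36 on EXO-HP replicate 2 and 0.31 on EXO-STD replicate 1, while the 34 ER genes lie between -0.06 and 0.02 on every array.

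In the wider ER pathway no gene passed the test either. Of 125 other tested genes, 54 were higher and 71 lower in EXO-HP (median log2 fold change -0.02), and 0 passed an adjusted or an unadjusted p of 0.05 in limma. Among 37 other folding enzymes and chaperones, 18 were higher and 19 lower (median -0.00). Ero1l, the second ER oxidase, read -1.84, -2.26 and -2.11 in EXO-HP and -1.87 and -1.50 in EXO-STD, a log2 fold change of -0.39 ± 0.24 (SE). Rcn1, a calcium-binding protein of the lumen, had -0.62 ± 0.46, which turned to 0.12 on the arrays of slide 1. On the higher side were 2010001M09Rik, now Mzb1, a folding partner of antibody chains in B cells, at 0.47 ± 0.28 and the thioredoxin-like Txndc5 at 0.22 ± 0.19. The value of 2010001M09Rik was 0.11 without EXO-STD replicate 1, 0.83 without EXO-STD replicate 2 and 0.15 in the deposited value table.

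Of 27 other degradation genes, 13 were higher and 14 lower (median -0.01). Edem2, a mannosidase-like protein, had 0.57 ± 0.40 (SE), which was -0.01 without EXO-STD replicate 2, and Nploc4, an adaptor of the p97 ATPase, had 0.33 ± 0.22. Ubxn4, another p97 adaptor, read -4.49, -5.07 and -4.60 in EXO-HP and -4.51 and -3.97 in EXO-STD, a log2 fold change of -0.48 ± 0.29. It was -0.93 with quantile normalisation and ranged from there to -0.22 over all 16 alternatives. H47, now Selenos, a membrane selenoprotein of the derlin complex, had -0.29 ± 0.25. The interval of each of these held 0. Of 31 genes of translocation, signal peptidase and oligosaccharyltransferase, 13 were higher and 18 lower (median -0.04). Srp9, a subunit of the signal recognition particle, read 2.72, 2.77 and 2.28 in EXO-HP and 3.15 and 2.91 in EXO-STD. Its groups did not overlap, and its log2 fold change of -0.44 ± 0.24 had an adjusted p of 0.955 in limma. Of the other genes named from these lists, Txndc5 and Nploc4 (higher) and Nfya (lower) did not overlap either. Over all tested genes, 15.1% were higher and 2.81% lower without overlap, and the share over the other ER pathway genes was not counted. Tusc3, an oligosaccharyltransferase subunit, had -0.27 ± 0.29, which was 0.07 without EXO-STD replicate 1. Rpn1, another subunit, had 0.20 ± 0.31, which was -0.16 without EXO-STD replicate 2. Tram2, a translocation protein, had 0.19 ± 0.23, which was 0.02 with quantile normalisation, -0.04 with normexp added to it and -0.05 in the deposited value table.

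Of 30 other sensors and regulators of the response, 10 were higher and 20 lower (median -0.05). Ern2, the epithelial homologue of IRE1, had 0.31 ± 0.33 (SE), which was -0.25 on the arrays of slide 1, and the transcription factor Creb3l2 had 0.24 ± 0.21. Ern2 was dim, at -4.93 to -3.96, and had 0.01 with normexp and quantile normalisation together. Trib3, a pseudokinase induced downstream of PERK, read 2.26, 2.67 and 2.37 in EXO-HP and 3.13 and 2.30 in EXO-STD. EXO-STD replicate 1 was its highest array, and the log2 fold change of -0.28 ± 0.31 was 0.14 without it. Nfya, a subunit of the NF-Y factor that binds CCAAT, had -0.20 ± 0.21. In the 2 within-group differences, 104 of the 125 genes (83.2%) had the same sign in both, beside 30 of the 34 genes (88.2%) and 71.4% of genes well above background on all 5 arrays.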

How the data were processed

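RNA of 5 MIN6 samples was measured on 1-colour Agilent arrays, 1 array each. Per the file headers, the deposited intensity values were extracted by the authors with Feature Extraction 10.7.3.1 (the submitters' processing notes name 9.1 and limma) as background-subtracted, detrended Cy3 signals, not scaled between arrays. Flags beside them mark outlier spots and spots well above background. The deposited log2 value table has equal column medians (7.93) and was used as an alternative. Its rows rank as mean signal minus local background, with no centring seen.

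Here outlier spots were left out, spots of a probe averaged as log2, and each array's 75th percentile subtracted. Probes lacking a usable spot on any 1 array (110), or not well above background on 2 arrays of 1 group, were left out, leaving 31943. EXO-HP was set against EXO-STD with lmFit and eBayes of limma 3.58.1 (R 4.3.3) without covariates (3 residual and 2.59 prior degrees of freedom) with Benjamini-Hochberg adjustment over all tested probes. With 3 against 2 arrays, the smallest exact two-sided permutation p is 0.2. The number of arrays limits precision. Genes were named by their symbols on the array, and H47, 2010001M09Rik and Ero1lb also through RefSeq synonyms. Values on each array are given for 10 fixed genes, the 8 of the 34 with the smallest p, and genes whose probes differ by over 0.5, and of each other list the 2 genes with the smallest p in each direction are named. Alternatives were other scalings and background correction, the deposited table, filters on dim probes, slide and replicate blocks and leaving out each array. They are not all separate estimates. Slide as a block gave the log2 fold changes of slide 1 alone, because slide 2 held no EXO-STD array. The replicate block gave those without EXO-HP replicate 3, and the filters on dim probes left those of the 34 genes unchanged. C-terminal retention signals were not analysed here, and 1 marker gene is not reported here by name. The members and lists were chosen with earlier results of these data known, and the ribosomal protein list and the choice of within-slide differences were made after the values were seen.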

Additional observations from a re-analysis of the deposited data

How the results depend on the processing

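All 34 genes stayed above an adjusted p of 0.05 in each of 15 alternatives fitted over probes. The replicate numbers of the titles gave 2 pairs, with correlations of 0.02 and -0.06. These are not of the signals, which correlated at 0.969 or more between any 2 arrays. With only 2 EXO-STD arrays they cannot show whether same-numbered arrays were paired. With the replicate block, the median of the 34 genes was 0.0080, 0 of them had an unadjusted p under 0.05 and Herpud1 had 0.043. Probes with an unadjusted p under 0.05 numbered 867 with quantile normalisation, 487 with normexp and quantile normalisation together (normexp below), 631 in the deposited value table, 1088 when restricted to probes well above background on all 5 arrays, 843 with slide as a fixed block and 982 on slide 1 alone. Slide 1 alone, with 1 residual degree of freedom, gave 94 probes past adjusted p 0.05, 0 of them among the 34 genes. The median of the 34 genes was -0.0096 with quantile normalisation, -0.21 with median scaling, 0.035 with normexp and 0.0082 in the deposited table, and 5 (median scaling) or 20 (normexp) genes were higher. Quantile normalisation turned Xbp1 (0.0011) and Sec61b (0.018). Median scaling, which moves all genes alike, turned Calr (-0.056), Atf6 (-0.048) and Ern1 (-0.088). Normexp turned Hsp90b1 (0.021), Xbp1 (0.045), Sec61b (0.18) and Tram2 (-0.036), and the deposited table Xbp1 (0.038), Sec61b (0.18) and Tram2 (-0.046). Slide as a block and slide 1 alone, which give the same log2 fold changes, turned Ern2 (-0.25) and Rcn1 (0.12), and the mean of all probes turned Dnajb11 (0.044). The cause of the others was not tested. Leaving out 1 replicate at a time gave 0 to 3 probes past adjusted p 0.05, 957 to 3412 past unadjusted p 0.05, a median of -0.072 to 0.0080, 13 to 17 of the 34 genes higher and 0 to 2 with an unadjusted p under 0.05. Log2 fold changes that changed sign ranged for Calr from -0.090 to 0.33, Xbp1 from -0.46 to 0.32, Atf6 from -0.19 to 0.44, Ern1 from -0.15 to 0.32, Eif2ak3 from -0.18 to 0.053, Herpud1 from -0.27 to 0.16, Sec61b from -0.43 to 0.38, Tusc3 from -0.62 to 0.071, Trib3 from -0.69 to 0.14, Hsp90b1 from -0.29 to 0.072, Edem2 from -0.010 to 1.15, Rpn1 from -0.16 to 0.56 and Hspa5 from -0.40 to 0.022.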
